A study of Homo sapiens with 4 samples.

Results

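The 10 genes described here encode lysophospholipid acyltransferases, enzymes that attach a fatty acid to a phospholipid that carries a single acyl chain. They were chosen by gene name, with no threshold on their values but with earlier results of these data known: AGPAT1, AGPAT2, AGPAT3, AGPAT5, LPCAT1, LPCAT3, MBOAT1, MBOAT2, MBOAT7 and LCLAT1. They are not the whole family, as AGPAT4, LPCAT2 and LPCAT4 are counted with further acyltransferase genes below. All 10 were found among the 64252 Ensembl gene identifiers of the count table, and all 10 were among the 17461 that passed the filter on low counts. RNA was sequenced from J.gamma1 cells, a subline of the Jurkat T-cell acute lymphoblastic leukaemia (T-ALL) line known for its lack of phospholipase C gamma 1, so every library shares that defect. The shELOVL5 group, 2 libraries, carried a short hairpin RNA against ELOVL5, an elongase of polyunsaturated fatty acids, and the shNC group, 2 libraries, carried a control hairpin. The labels do not give the hairpin sequences, how many hairpins were used, the time after delivery (the column names all carry D4, which is not explained), or whether the replicates were separate cultures, so each p-value reflects nothing but the scatter of these 4 libraries, part or all of which may be technical.

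Phospholipids are built and then remodelled by this class of enzyme. Acyltransferases of the AGPAT type turn lysophosphatidic acid into phosphatidic acid, the precursor of all glycerophospholipids. In remodelling, phospholipases remove a chain and enzymes of the LPCAT and MBOAT type put another in its place. Each enzyme accepts some acyl chains better than others, and so the set of enzymes a cell expresses helps to fix how saturated its membranes are. Elongases such as ELOVL5 make part of the polyunsaturated chains that these enzymes use.

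Total counts lay between 16254002 and 17338719 per library, and the members had between 163 and 1603 counts each, so that none was near the floor. ELOVL5 itself had 1255 and 1157 counts in the shELOVL5 libraries against 5816 and 5664 in the shNC libraries, and its level fell in edgeR's quasi-likelihood test (log2 fold change -2.29, SE 0.049, adjusted p = 1.79e-09). Taken as tallies of reads, counts differed between replicates by more than sampling noise. The chi-square per degree of freedom was 5.43 within shELOVL5 and 5.80 within shNC, against 24.9 to 27.3 between groups. All 10 genes of the T cell marker list were detected. They summed to 1644 and 1691 CPM in shELOVL5 libraries and 1760 and 1778 CPM in shNC libraries. CPM are counts scaled to the TMM-adjusted size of the library. TAL1 in this list is a T-ALL oncogene and not a marker of T cells in general. It had 196 and 182 CPM in shELOVL5 libraries, against 296 and 308 CPM in shNC libraries, so the sums do not measure T cell markers alone. Of these 10 genes 2 rose and 5 fell, beside 9.22% higher and 11.2% lower among all tested genes. CD3E (log2 fold change 0.32) and CD3G (0.25) rose. CD1A (log2 fold change -0.85, edgeR adjusted p = 0.00321) and TAL1 (-0.68, adjusted p = 9.33e-06) fell most. CD3D (-0.26), CD247 (-0.28) and LCK (-0.17) fell less. CD2 (-0.63), CD5 (-0.28) and CD7 (0.19) did not pass. Of the B cell markers, CD79A had 26.6 and 24.8 CPM in shELOVL5 libraries, against 43.5 and 37.2 CPM in shNC libraries (log2 fold change -0.65, edgeR adjusted p = 0.00267). CD79B had 2.86 and 2.12 CPM in shELOVL5 libraries, against 3.94 and 2.87 CPM in shNC libraries, and MS4A1 had under 10 counts in every library. The 4 myeloid markers summed to under 1 CPM in every library, with LYZ and CSF1R at 0 counts. The 5 epithelial and fibroblast markers summed to 10.7 and 11.3 CPM in shELOVL5 libraries and to 9.60 and 10.9 CPM in shNC libraries. EPCAM, KRT19 and COL1A2 were at 0 counts. COL1A1 had 132 and 111 counts in shELOVL5 libraries, against 96 and 62 in shNC libraries, and KRT8 had 66 and 66 against 89 and 92. Neither passed the test. Both were above CD2 of the T cell list in every library, where CD2 had 35 and 35 counts against 61 and 45. The part of these differences in the results below was not tested.

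The comparison asked which of the enzymes that load fatty acids onto phospholipids differed in transcript level when ELOVL5 was knocked down. AGPAT3 rose, LPCAT1 fell, and the other 8 members did not pass the test. Of all tested genes 9.22% were called higher and 11.2% lower at an adjusted p under 0.05, so 1 member higher and 1 lower of 10 is close to the background of this experiment. The median log2 fold change was 0.08 over the members and 0.006 over all tested genes, and 9 of the 10 members were above 0, against 8878 of 17461 genes. Among the 10 further acyltransferase genes described below, 3 were above 0 and 7 below. For 5 members the libraries of one group lay wholly on one side of the other's, AGPAT2, AGPAT3, MBOAT1 and LCLAT1 above and LPCAT1 below, whereas the same held for 60.1% of all tested genes. In bulk RNA, fewer cells of a kind and less RNA per cell cannot be told apart.

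**Figure D1:**
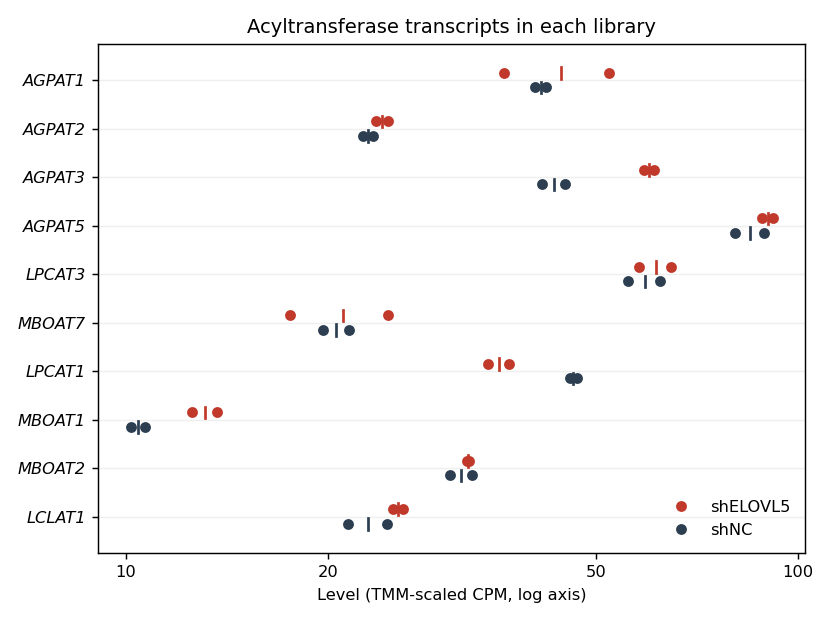
TMM-scaled CPM of the 10 acyltransferase genes on a log axis, each point a library and each short line the mean of its group, with shELOVL5 drawn above shNC. Both shELOVL5 points lie to the right of the shNC points for AGPAT3 (58.9 and 60.9 against 41.6 and 45.1 CPM) and to the left for LPCAT1 (34.6 and 37.1 against 46.9 and 45.7 CPM), while the shELOVL5 points of AGPAT1 and MBOAT7 lie on both sides of the shNC points.

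AGPAT3 encodes a lysophosphatidic acid acyltransferase of the endoplasmic reticulum and Golgi which, in mice, is known for placing docosahexaenoic acid into phospholipids. The gene (ENSG00000160216) lies on the plus strand of chromosome 21, from 43865186 to 43986536 on GRCh38. It had 1030 and 1007 counts in shELOVL5 libraries, against 706 and 723 counts in shNC libraries. Its level was 59.9 ± 1.42 CPM in shELOVL5 and 43.3 ± 2.47 CPM in shNC (SD, n = 2 each). Both shELOVL5 libraries were above both shNC libraries, by far more than the distance between replicates. The rise was 1.38-fold (log2 fold change 0.47, 95% interval 0.28 to 0.66, SE 0.087, edgeR adjusted p = 0.00369). It passed with any 1 library left out, with log2 fold changes of 0.41 to 0.52, but a test against a change of 1.2-fold did not pass (edgeR adjusted p = 0.0699).

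LPCAT1 encodes an acyltransferase of lysophosphatidylcholine that prefers saturated chains and is known for making the dipalmitoyl lipid of lung surfactant. The gene (ENSG00000153395) lies on the minus strand of chromosome 5, from 1456480 to 1523977. It had 604 and 613 counts in shELOVL5 libraries, against 796 and 734 counts in shNC libraries. Its level was 35.8 ± 1.79 CPM in shELOVL5 and 46.3 ± 0.792 CPM in shNC (SD, n = 2 each). The groups did not overlap, and the level was 1.29-fold lower in shELOVL5 (log2 fold change -0.37, 95% interval -0.58 to -0.16, SE 0.094, edgeR adjusted p = 0.0188). The call was lost without shELOVL5 replicate 1 (log2 fold change -0.33, edgeR adjusted p = 0.129), without shELOVL5 replicate 2 (-0.42, adjusted p = 0.0551) and without shNC replicate 1 (-0.36, adjusted p = 0.0685), and it held without shNC replicate 2 (-0.39, adjusted p = 0.0430). Of the 13 transcript identifiers that GENCODE lists under the symbol LPCAT1, 7 lie outside the primary assembly, and reads assigned to such copies are not analysed here.

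The sequences upstream of the annotated starts of these 2 members are shown because they are the members whose transcript level changed. They are the 250 bases before each RefSeq start (GRCh38.p14), 5′ to 3′ on the gene's strand, with capitals on every match to 6 motifs searched on both strands. AGPAT3 has 2 such starts in RefSeq, at 43916788 and 43925398, both inside the span that GENCODE gives the gene. Both lie downstream of 43865186, where that span begins on the plus strand. The bases before 43865186 were neither shown nor searched.
AGPAT3 start A, chr21:43916538-43916787, plus strand: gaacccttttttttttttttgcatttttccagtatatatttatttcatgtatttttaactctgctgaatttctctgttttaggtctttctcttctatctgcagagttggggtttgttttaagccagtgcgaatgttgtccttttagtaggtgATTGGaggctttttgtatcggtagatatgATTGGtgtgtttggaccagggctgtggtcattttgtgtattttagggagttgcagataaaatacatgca
AGPAT3 start B, chr21:43925148-43925397, plus strand: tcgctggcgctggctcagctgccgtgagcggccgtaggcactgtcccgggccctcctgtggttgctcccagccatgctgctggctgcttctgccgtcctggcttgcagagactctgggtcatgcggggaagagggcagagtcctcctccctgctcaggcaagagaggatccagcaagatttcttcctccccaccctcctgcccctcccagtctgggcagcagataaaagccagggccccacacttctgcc
LPCAT1, chr5:1523961-1524210, minus strand: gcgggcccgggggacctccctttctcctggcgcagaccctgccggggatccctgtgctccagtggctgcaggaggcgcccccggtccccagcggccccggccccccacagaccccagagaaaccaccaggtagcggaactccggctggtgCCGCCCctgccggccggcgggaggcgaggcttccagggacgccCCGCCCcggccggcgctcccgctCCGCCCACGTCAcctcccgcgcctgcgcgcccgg

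The window of LPCAT1 was 78.8% G and C and held the GC box GGGCGG 3 times, on the reverse strand, (letters CCGCCC here) and the core TGACGT of the cAMP response element, also on the reverse strand and starting 28 bases before the start of transcription. The GC box was in 42.64% and the core in 7.10% of all 35116 windows of the same length. The AGPAT3 window at start A was 35.6% G and C and held the CCAAT box (CCAAT, here as ATTGG) at 2 places on the reverse strand, a motif found in 32.01% of windows. The window at start B was 64.8% G and C and matched none of the 6. Windows of members that did not pass also held the GC box and the CCAAT box. The GC box occurred 7 times before MBOAT2, 6 before AGPAT2, 5 before LPCAT3, 1 before MBOAT7 and 0 before LCLAT1. Before the AGPAT1 starts it occurred 0 to 2 times. The CCAAT box occurred 3 times before LPCAT3, 1 before LCLAT1, 0 to 3 before the AGPAT1 starts and 0 before MBOAT2, AGPAT2 and MBOAT7. The TGACGT core occurred in none of these windows. The E-box CACGTG, present in 6.34% of windows, the sterol response element TCACNCCAC, in 0.88%, and the amino acid response element TGATGNAA, in 3.14%, had no match in any window of the 8 members searched. AGPAT5 and MBOAT1 were not searched. In the LPCAT1 window the core and the nearest GC box adjoin without sharing a base.

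The other AGPAT members did not pass the test. AGPAT1 and AGPAT2 are the classical acyltransferases of lysophosphatidic acid in the endoplasmic reticulum, and loss of AGPAT2 causes a congenital lipodystrophy in people. AGPAT2 (ENSG00000169692, chromosome 9, 136673143 to 136687423, minus strand) had 23.6 and 24.6 CPM in shELOVL5 libraries, against 22.5 and 23.3 CPM in shNC libraries. The groups did not overlap, but the distance between them was of the size of that between replicates (log2 fold change 0.07, 95% interval -0.19 to 0.34, edgeR adjusted p = 0.734). AGPAT5, whose product is found at mitochondria, had the highest counts of all members. It (ENSG00000155189, chromosome 8, 6708357 to 6759666, plus strand) had 91.7 and 88.3 CPM in shELOVL5 libraries, against 89.1 and 80.6 CPM in shNC libraries, with overlapping groups. Its log2 fold change of 0.09 had a 95% interval of -0.07 to 0.24 (edgeR adjusted p = 0.456). The upper end of that interval is below the log2 fold change measured for AGPAT3. The same held for AGPAT2, LPCAT3, MBOAT2, MBOAT7 and LCLAT1, but not for AGPAT1 and MBOAT1. AGPAT3 has an interval of its own (0.28 to 0.66), and differences between members were not tested.

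AGPAT1 (ENSG00000204310, chromosome 6, 32168212 to 32178096, minus strand) had 36.5 and 52.3 CPM in shELOVL5 libraries, against 40.6 and 42.2 CPM in shNC libraries. The shELOVL5 libraries lay on both sides of the shNC libraries and differed 1.43-fold from each other, the widest replicate distance among the members. Its log2 fold change of 0.10 (95% interval -0.29 to 0.49, edgeR adjusted p = 0.741) was -0.18 without shELOVL5 replicate 2 and 0.33 without shELOVL5 replicate 1. AGPAT1 lies in the major histocompatibility complex, and 48 of the 56 transcript identifiers under its symbol lie outside the primary assembly. In addition, 29.9% of its exon bases overlap the readthrough gene PPT2-EGFL8 on the opposite strand, which had 184 and 215 counts in shELOVL5 libraries and 170 and 190 counts in shNC libraries.

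Among the remodelling enzymes that favour polyunsaturated chains, LPCAT3 and MBOAT7, no change was detected. LPCAT3 places linoleic and arachidonic acid into phosphatidylcholine and phosphatidylethanolamine and is a known target of the liver X receptors. It (ENSG00000111684, chromosome 12, 6976186 to 7018510, minus strand) had 64.8 and 57.9 CPM in shELOVL5 libraries, against 62.3 and 55.9 CPM in shNC libraries. The groups overlapped (log2 fold change 0.05, 95% interval -0.15 to 0.26, edgeR adjusted p = 0.740). The exons of LPCAT3 overlap those of EMG1, a ribosome biogenesis gene on the opposite strand, over 65.6% of their bases. EMG1 had 872 and 827 counts in shELOVL5 libraries and 894 and 868 counts in shNC libraries, and as no source used here says whether counting used strand, the reads of these genes cannot be told apart with certainty.

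MBOAT7 places arachidonic acid into phosphatidylinositol. It (ENSG00000125505, chromosome 19, 54173412 to 54189882, minus strand) had 17.5 and 24.5 CPM in shELOVL5 libraries, against 21.5 and 19.6 CPM in shNC libraries. As with AGPAT1, the shELOVL5 libraries lay on both sides of the shNC libraries, with replicate 2 at 1.40 times replicate 1. Its log2 fold change of 0.03 had a 95% interval of -0.34 to 0.40 (edgeR adjusted p = 0.929), and leaving out shELOVL5 replicate 2 gave -0.23 and leaving out shELOVL5 replicate 1 gave 0.25. MBOAT7 lies beside the leukocyte receptor genes, and 57 of the 71 transcript identifiers under its symbol lie outside the primary assembly. AGPAT1 and MBOAT7 were the members with the most such identifiers and with the widest replicate distances within shELOVL5, against 1.01 to 1.12 for the other 8, and the part of the assignment of reads in this was not tested.

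**Figure D2:**
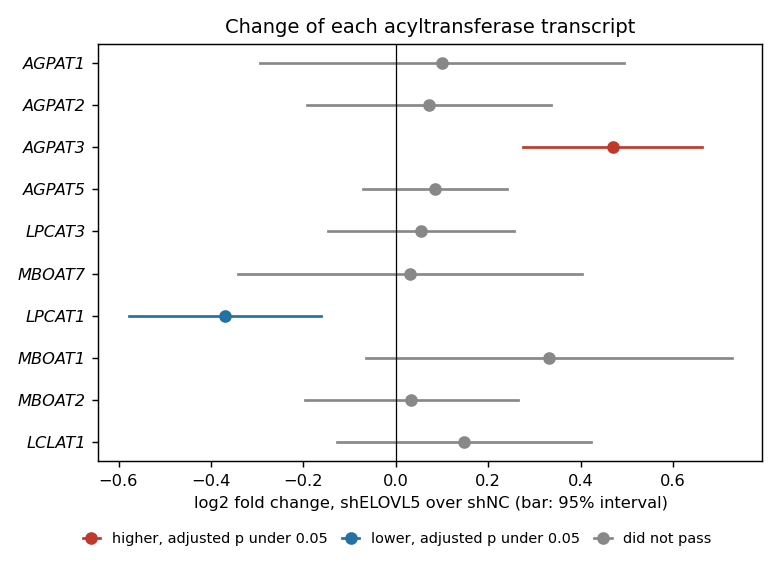
Log2 fold change of each member, shELOVL5 over shNC, with a 95% interval computed from the edgeR test. Red is for higher, blue for lower and grey for genes that did not pass. Only the intervals of AGPAT3 (0.28 to 0.66) and LPCAT1 (-0.58 to -0.16) exclude 0, and that of MBOAT1 (-0.06 to 0.73) is the widest of those whose groups did not overlap.

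MBOAT1 and MBOAT2 encode remodelling enzymes that favour oleic acid and act on lysophosphatidylethanolamine, with lysophosphatidylserine as a further substrate of MBOAT1 and lysophosphatidylcholine as one of MBOAT2. MBOAT1 (ENSG00000172197, chromosome 6, 20102145 to 20212399, minus strand) had 239 and 207 counts in shELOVL5 libraries, against 181 and 163 counts in shNC libraries, the lowest counts of the 10 members. In CPM these were 13.7 and 12.5 in shELOVL5 libraries against 10.7 and 10.2 in shNC libraries, with no overlap. The ratio of 1.26 (log2 fold change 0.33, SE 0.179) did not pass (95% interval -0.06 to 0.73, edgeR adjusted p = 0.231), and the interval still holds the value of AGPAT3. MBOAT2 (ENSG00000143797, chromosome 2, 8852690 to 9003813, minus strand) had 32.4 and 32.1 CPM in shELOVL5 libraries, against 32.7 and 30.3 CPM in shNC libraries. Its groups overlapped (log2 fold change 0.03, 95% interval -0.20 to 0.26, edgeR adjusted p = 0.864).

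LCLAT1 encodes an acyltransferase known for remodelling cardiolipin, the signature lipid of mitochondria. It (ENSG00000172954, chromosome 2, 30447226 to 30644225, plus strand) had 24.9 and 25.8 CPM in shELOVL5 libraries, against 21.4 and 24.4 CPM in shNC libraries. Both shELOVL5 libraries were above both shNC libraries, but shNC replicate 2 lay nearer to them than to its own replicate. The log2 fold change of 0.15 (95% interval -0.13 to 0.42, edgeR adjusted p = 0.461) was 0.05 without shNC replicate 1 and 0.24 without shNC replicate 2.

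**Figure D3:**
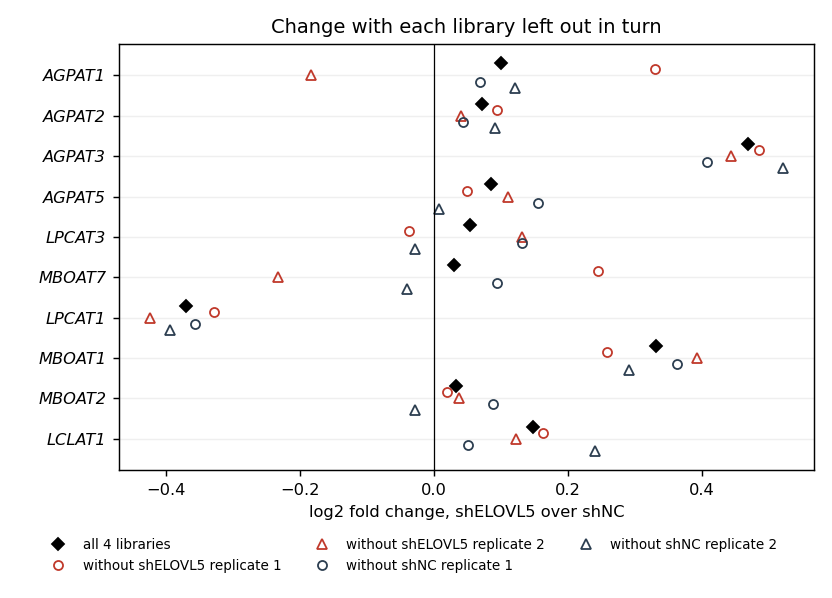
Log2 fold change of each member with all 4 libraries (black diamonds) and with each library left out in turn (open symbols, red for shELOVL5 and dark for shNC libraries). AGPAT3 stays between 0.41 and 0.52 and LPCAT1 between -0.42 and -0.33, whereas AGPAT1 runs from -0.18 to 0.33 and MBOAT7 from -0.23 to 0.25.

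Levels of different genes were compared as CPM per kilobase of annotated exon. For AGPAT1, MBOAT7, LPCAT1 and AGPAT5, with 7 of 14 transcript identifiers of AGPAT5 outside the primary assembly, these levels leave out any reads assigned to other copies. In this measure AGPAT5 was highest, at 19.2 in shELOVL5 and 18.1 in shNC. AGPAT2, LPCAT3 and AGPAT1 followed, in that order, at 12.2 to 13.4 CPM per kilobase in shELOVL5 and 11.4 to 12.7 in shNC. AGPAT2 and LPCAT3 overlapped in both groups, and AGPAT1 overlapped both of these in shELOVL5 only. The means of the lower members lay between 3.37 and 7.30 CPM per kilobase in shELOVL5 and between 3.05 and 7.13 in shNC. LCLAT1 had the lowest mean in both groups. LPCAT1 with AGPAT3, MBOAT7 with MBOAT2 and MBOAT7 with LCLAT1 overlapped in shELOVL5. In shELOVL5 replicate 1, MBOAT7 lay at 3.31 CPM per kilobase, against 3.32 for LCLAT1. MBOAT7, AGPAT3 and MBOAT2 all overlapped each other in shNC. With the longest coding transcript as the length, an alternative chosen after seeing the data, LPCAT3 came before AGPAT5, at 27.0 against 24.4 CPM per kilobase in shELOVL5 and 26.1 against 23.0 in shNC. By that length MBOAT2 and not LCLAT1 was lowest, at 4.16 against 5.01 CPM per kilobase in shELOVL5 and 4.07 against 4.53 in shNC.

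AGPAT3 stood at 5.22 and 5.40 CPM per kilobase in shELOVL5 libraries, against 3.68 and 3.99 in shNC libraries, and LPCAT1 at 5.32 and 5.71 in shELOVL5 libraries, against 7.22 and 7.04 in shNC libraries. Per kilobase of annotated exon, the AGPAT3 level was thus 0.980 and 0.944 times the LPCAT1 level in shELOVL5 libraries and 0.510 and 0.566 times in shNC libraries. This pair was chosen after its values were seen, and the ratio has no test of its own. It depends on the length used: per kilobase of the longest coding transcript AGPAT3 averaged 10.4 and LPCAT1 9.03 CPM in shELOVL5, with AGPAT3 above, and AGPAT3 averaged 7.51 and LPCAT1 11.7 CPM in shNC, with AGPAT3 below. AGPAT3 made up 6.14% and 6.06% of the summed per-length level of the 10 members in shELOVL5 libraries and 4.42% and 4.94% in shNC libraries. The sum itself was 84.9 and 89.0 CPM per kilobase in shELOVL5 libraries, against 83.3 and 80.7 in shNC libraries, with AGPAT1 contributing most to the distance between the shELOVL5 libraries.

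Of 10 further glycerophosphate and lysophospholipid acyltransferase genes, all tested, 1 rose and 1 fell, which is close to the 9.22% higher and 11.2% lower among all tested genes. Their median log2 fold change was -0.12, against 0.006 over all tested genes. LPGAT1, whose product acylates lysophosphatidylglycerol and lysophosphatidylethanolamine, had 157 and 149 CPM in shELOVL5 libraries, against 122 and 112 CPM in shNC libraries (log2 fold change 0.39, edgeR adjusted p = 0.00137). LPGAT1 passed with any 1 library left out, with log2 fold changes of 0.32 to 0.45. GPAM, which encodes the mitochondrial acyltransferase that starts glycerolipid synthesis, fell to 53.8 and 50.1 CPM in shELOVL5 libraries, against 67.4 and 60.1 CPM in shNC libraries (log2 fold change -0.29, edgeR adjusted p = 0.0403). That call was lost by scaling to total counts (adjusted p = 0.0646), with limma-voom (0.0601), with robust=FALSE (0.0634), without shELOVL5 replicate 1 (adjusted p = 0.0891), without shELOVL5 replicate 2 (0.215) and without shNC replicate 1 (0.196). GPAT4, the most abundant of these genes in counts, had 165 and 165 CPM in shELOVL5 libraries, against 163 and 171 CPM in shNC libraries (log2 fold change -0.02, 95% interval -0.13 to 0.09).

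Phospholipases release the lysophospholipids that the members use. Of 18 genes of phospholipases and lysophospholipases 14 could be tested, and 3 rose and 1 fell, beside 9.22% higher and 11.2% lower among all tested genes. Their median log2 fold change was 0.02. PNPLA6, which encodes a phospholipase of phosphatidylcholine and lysophosphatidylcholine, had 190 and 218 CPM in shELOVL5 libraries, against 163 and 171 CPM in shNC libraries (log2 fold change 0.29, edgeR adjusted p = 0.0134). PLA2G12A, a secreted phospholipase A gene, rose by 0.33 on the log2 scale (edgeR adjusted p = 0.0301). The related thioesterase and lysophospholipase genes LYPLA1 and LYPLA2 moved apart. LYPLA1 had 118 and 122 CPM in shELOVL5 libraries, against 140 and 144 CPM in shNC libraries (log2 fold change -0.24, edgeR adjusted p = 0.00936). LYPLA2 had 70.4 and 64.8 CPM in shELOVL5 libraries, against 55.2 and 57.4 CPM in shNC libraries (log2 fold change 0.27, edgeR adjusted p = 0.0410, or 0.0529 with a replicate block). The call of LYPLA2 was lost with any 1 library left out (adjusted p = 0.0725 to 0.283), as was that of PLA2G12A (0.0717 to 0.201). LYPLA2 also lost its call with limma-voom (0.0558) and robust=FALSE (0.0588). The call of LYPLA1 was lost without shELOVL5 replicate 1 (adjusted p = 0.0769), and that of PNPLA6 without shELOVL5 replicate 2 (0.112) or shNC replicate 1 (0.0850). PLA2G4A, PLA2G4C, PLA2G7 and PLAAT3 were too low to test, at no more than 13 counts in any library.

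**Figure D4:**
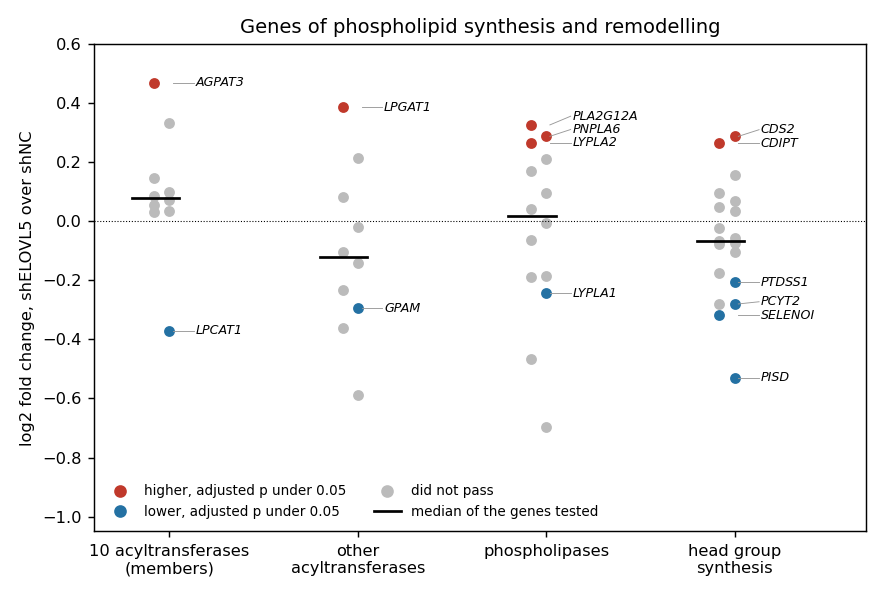
Log2 fold change, shELOVL5 over shNC, of every tested gene in the 10 members and in 3 further lists of phospholipid genes, with genes that passed the test named and coloured and the median of each list as a black line. PISD (-0.53) is the lowest named gene and AGPAT3 (0.47) the highest, and each list holds genes that passed in both directions.

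Phosphatidic acid made by the AGPAT enzymes is turned into phospholipids by the genes of head group synthesis. Of 19 such genes, all tested, 2 rose and 4 fell, beside 9.22% higher and 11.2% lower among all tested genes, and nothing particular to the list is read from these counts. Their median log2 fold change was -0.07. The 2 that rose were CDS2, which encodes a CDP-diacylglycerol synthase, and CDIPT, which encodes the phosphatidylinositol synthase. CDS1, the other CDP-diacylglycerol synthase gene, did not pass, at 14 to 23 counts per library (log2 fold change 0.16, edgeR adjusted p = 0.881). CDS2 had 191 and 167 CPM in shELOVL5 libraries, against 147 and 146 CPM in shNC libraries (log2 fold change 0.29, edgeR adjusted p = 0.00998). CDIPT had 134 and 146 CPM in shELOVL5 libraries, against 116 and 118 CPM in shNC libraries (log2 fold change 0.26, edgeR adjusted p = 0.0104). The call of CDS2 was lost without shELOVL5 replicate 1 (adjusted p = 0.123) or shNC replicate 2 (0.0557), and that of CDIPT without shELOVL5 replicate 2 (0.124).

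The 4 that fell were PISD, PCYT2, SELENOI and PTDSS1. PISD, which encodes the mitochondrial decarboxylase that turns phosphatidylserine into phosphatidylethanolamine, had 36.6 and 35.5 CPM in shELOVL5 libraries, against 51.0 and 53.0 CPM in shNC libraries. The groups were well apart (log2 fold change -0.53, SE 0.090, edgeR adjusted p = 0.00215), and PISD passed under all 14 alternatives with an adjusted p of at most 0.0320. PCYT2 (-0.28, edgeR adjusted p = 0.0196) and SELENOI (-0.32, adjusted p = 0.0332) encode enzymes of the CDP-ethanolamine route, and PTDSS1 (-0.21, adjusted p = 0.0388) a phosphatidylserine synthase. Other genes of these routes did not pass: ETNK1, an ethanolamine kinase gene, had a log2 fold change of 0.05 (edgeR adjusted p = 0.591), CEPT1, a choline and ethanolamine phosphotransferase gene, one of 0.10 (0.422), and PTDSS2, the other phosphatidylserine synthase gene, one of -0.17 (0.433). The PCYT2, SELENOI and PTDSS1 calls were lost without shELOVL5 replicate 2 (adjusted p = 0.0995, 0.235 and 0.102) and, in part, without other libraries: PCYT2 without shELOVL5 replicate 1 (0.0993) or shNC replicate 1 (0.0940), SELENOI without shNC replicate 1 (0.0554) or 2 (0.0998), and PTDSS1 without shELOVL5 replicate 1 (0.219) or shNC replicate 2 (0.205). SELENOI and PTDSS1 also lost their calls with total counts (adjusted p = 0.0523 and 0.0841), limma-voom (0.0514 and 0.0749) and robust=FALSE (0.0589 and 0.0704). The choline route genes CHKA, CHKB, PCYT1A, PCYT1B and CHPT1 had log2 fold changes of -0.28 to 0.04, none of which passed (edgeR adjusted p = 0.578 to 0.803). Of the 12 genes called in the 3 lists, LPGAT1, LYPLA1 and PISD also passed without the low-count filter, and PISD alone passed against a 1.2-fold change. Exons of PCYT2 overlap NPB on the opposite strand over 28.1% of their bases, and those of CDIPT overlap AC120114.2 on the opposite strand over 19.8%, with 205 and 141 counts of AC120114.2 in shELOVL5 libraries and 144 and 121 in shNC libraries. Exons of PLA2G12A overlap AC126283.2 on the same strand over 15.7% of their bases, those of PNPLA6 overlap AC008878.2 on the same strand over 10.8%, and those of CHKB share 72.5% with the readthrough gene CHKB-CPT1B. Smaller overlaps of the genes called in these lists covered at most 6.0%.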

How the data were processed

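Per the file headers and their values, the authors deposited whole-number counts per Ensembl gene identifier for 4 libraries. They were treated here as read counts that are not normalized. Whether they are direct tallies of reads is not stated. Per the submitters' processing notes HISAT2 2.2.0, StringTie and build hg38 were used, without stated roles. No source used here names the annotation, the counting step or whether it used strand. Each library was assigned by its title. Symbols came from a gene name table that matched 56105 of 64252 identifiers, and positions and exon lengths from GENCODE release 29 on GRCh38. Identifiers outside its primary assembly numbered 7661 and held 2.10% of counts.

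All genes were fitted with edgeR 4.0.16 in R 4.3.3: filterByExpr with a minimum count of 10, TMM scaling, and the two-sided quasi-likelihood test (robust) with group as the only term. Benjamini-Hochberg adjustment ran over all tested genes, with a threshold of 0.05. Named genes are the 10 members, ELOVL5, and up to 4 genes per direction with the smallest p in each of 3 lists. Untested or uncalled genes of those lists, marker genes and the AGPAT3 to LPCAT1 ratio were named after their values were seen. The members and lists were chosen with earlier results of these data known. The alternatives were RLE factors, total counts, no low-count filter, 1 CPM in 2 libraries, DESeq2 1.42.0, limma-voom (limma 3.58.1), robust=FALSE, a replicate block, summed identifiers of 1 symbol, a test against 1.2-fold, and each library left out. Promoter sequences are from RefSeq, GRCh38.p14. One marker gene of the B cell list is not reported here.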

Additional observations from a re-analysis of the deposited data

How the results depend on the processing

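The count of members called was 1 higher and 1 lower under 9 of the 10 alternatives that kept all 4 libraries. In the test against a 1.2-fold change it was 0 and 0. With a library left out, 1 member was higher each time and 0 to 1 lower, LPCAT1 being lost in 3 of 4 cases. AGPAT3 kept a log2 fold change of 0.41 to 0.52 and ELOVL5 one of -2.32 to -2.26 under all 14 alternatives. Direction turned for members that had not passed: AGPAT1 (-0.18) and MBOAT7 (-0.23) without shELOVL5 replicate 2, LPCAT3 without shELOVL5 replicate 1 (-0.037) or shNC replicate 2 (-0.028), and MBOAT2 (-0.028) and MBOAT7 (-0.040) without shNC replicate 2. With a library left out these ran from -0.18 to 0.33 for AGPAT1, from -0.037 to 0.13 for LPCAT3, from -0.028 to 0.088 for MBOAT2 and from -0.23 to 0.25 for MBOAT7. The cause was not tested. A lone library is assumed to vary like the other group. No broad shift was shared by libraries of the same replicate number (r = -0.015 across genes between the replicate differences of the groups). The labels do not say whether such libraries shared a culture or preparation, so this correlation cannot settle whether they were paired. With a replicate block, 1 member was called higher and 1 lower, and of the 12 genes called in the other lists LYPLA2 alone lost its call (edgeR adjusted p = 0.0529). Each member matched 1 identifier by its symbol, so summing identifiers of 1 symbol could not change the members' counts. That alternative is no separate check of the members, and it does not cover copies outside the primary assembly. Over all genes 1610 were higher and 1952 lower, against 408 and 641 in the test against 1.2-fold. There were 899 higher and 1344 lower without a low-count filter, and 1933 higher and 1674 lower by total counts alone. Without shELOVL5 replicate 1 these numbers were 696 and 1176, and without shELOVL5 replicate 2 they were 795 and 1178. MBOAT1, with the lowest counts, had the widest standard error of the members.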
